A study of Mus musculus with 2 samples.

Results

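The genes described here are 9 components of the cellular oxygen sensor: the hypoxia-inducible factor (HIF) subunits Hif1a, Epas1, Arnt and Arnt2, the HIF prolyl hydroxylases Egln1, Egln2 and Egln3, the asparaginyl hydroxylase Hif1an, and Vhl. The rule takes them by symbol and uses no measured value, but it was set with earlier results of these arrays known. A probe set, the group of short probes that measures a transcript on the array, was taken when the platform annotation gave it exactly 1 gene symbol among the 9. This found 24 probe sets of 45037 on the array, for 9 of 18193 genes with such a probe set, and 0 probe sets with several symbols held a member.

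The study compared 2 samples of Neuro2a, a mouse neuroblastoma cell line. The first received a control (non-specific) siRNA by transfection and the other an siRNA against mKIAA1583 (Tmem132a), which encodes a membrane protein. Total RNA of each was labelled with biotin and read on 1 Affymetrix Mouse Genome 430 2.0 array, and the expression unit is the signal intensity that the MAS5 algorithm computes per probe set, on a linear scale. The comparison asks which transcripts differ when Tmem132a is targeted. The siRNA dose, the time after transfection and the oxygen level of the cultures are not given in the sources used here. Per the labels the groups differ by the siRNA alone, and the effect of 1 siRNA and that of losing Tmem132a cannot be told apart.

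With 1 array per group no replicate error and no test can be given, so that differences are described by size alone and the number of arrays limits the precision. The only error that can be measured is the disagreement of probe sets of the same gene, which share the same RNA. Over 5072 genes with several probe sets, log2 ratios had an SD of 0.39 around the mean of their gene, pooled over dim and bright probe sets. A ratio always has the Tmem132a siRNA array on top and the control array below. A gene value is the mean log2 ratio over the probe sets of the gene whose mean signal reached 77.2, the median of all probe sets, and 10678 genes had one.

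As background, HIF is a dimer of an oxygen-labile alpha subunit, HIF-1-alpha (Hif1a) or HIF-2-alpha (Epas1), and a stable beta subunit, ARNT or ARNT2. When oxygen is present, the EGLN enzymes hydroxylate prolines of the alpha subunit, the VHL protein binds the hydroxylated form, and a ubiquitin ligase built around VHL marks it for the proteasome. HIF1AN, also called FIH, hydroxylates an asparagine of the alpha subunit and blocks its binding to the coactivators p300 and CBP. EGLN1 is the main enzyme of this kind in most cells under normal oxygen, and Egln3 and Egln1 are themselves induced by HIF. Most of this control acts on the HIF-alpha protein, which an RNA array does not measure. In neuroblastoma and in the sympathetic lineage, HIF-2-alpha has been studied for its link to the differentiation state of the cells.

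The DNA upstream of 4 of these genes is shown because HIF binds a short core sequence, ACGTG or GCGTG, and because Hif1a, Egln1 and Egln2 were the members with the lowest ratios and Egln3 the one with the highest. Each sequence is the 250 bases before a transcript start, 5′ to 3′ on the strand of the gene, from RefSeq with build GRCm38.p6. Capitals mark every ACGTG or GCGTG on either strand, so that a match on the opposite strand reads CACGT or CACGC. For Hif1a the table's start lies inside the RefSeq span of the gene, which begins further upstream.
Hif1a, chr12:73907617-73907866, plus strand: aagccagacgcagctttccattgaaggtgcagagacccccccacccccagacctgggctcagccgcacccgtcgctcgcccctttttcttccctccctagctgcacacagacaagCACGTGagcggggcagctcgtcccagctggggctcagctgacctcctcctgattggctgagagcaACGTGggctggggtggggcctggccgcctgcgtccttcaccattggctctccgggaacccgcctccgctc
Egln1, chr8:124949255-124949504, minus strand: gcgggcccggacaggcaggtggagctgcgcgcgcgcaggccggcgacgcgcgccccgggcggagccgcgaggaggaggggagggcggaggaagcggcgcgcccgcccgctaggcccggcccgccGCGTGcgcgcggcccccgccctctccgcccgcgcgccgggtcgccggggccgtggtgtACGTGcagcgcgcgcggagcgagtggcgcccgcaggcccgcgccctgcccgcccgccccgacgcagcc
Egln2, chr7:27166803-27167052, minus strand: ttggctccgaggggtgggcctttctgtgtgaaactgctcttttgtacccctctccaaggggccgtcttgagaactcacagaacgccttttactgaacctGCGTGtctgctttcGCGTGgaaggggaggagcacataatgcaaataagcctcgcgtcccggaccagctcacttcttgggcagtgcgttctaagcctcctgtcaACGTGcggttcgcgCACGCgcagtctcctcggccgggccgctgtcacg
Egln3, chr12:54203875-54204124, minus strand: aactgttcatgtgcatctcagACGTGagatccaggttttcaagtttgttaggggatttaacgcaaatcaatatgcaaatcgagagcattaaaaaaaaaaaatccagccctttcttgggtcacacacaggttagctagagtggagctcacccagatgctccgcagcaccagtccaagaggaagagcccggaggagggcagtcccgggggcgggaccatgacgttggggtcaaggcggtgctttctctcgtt

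The Hif1a window held ACGTG 3 times. Of these, 2 overlapped as the palindrome CACGTG, starting 135 bases before the start, and the other began 70 bases before it. The Egln1 window held ACGTG 68 bases and GCGTG 126 bases before the start. The Egln2 window held ACGTG 1 time, 48 bases before the start, and GCGTG 3 times. The Egln3 window held ACGTG 1 time, 229 bases before the start, and GCGTG 0 times. Over 32851 RefSeq windows of the same length, 16.6% held ACGTG, 28.2% held GCGTG and 38.6% held at least 1 of them on either strand. The windows differed in base composition, with 86.0% G and C for Egln1, 66.4% for Hif1a, 59.2% for Egln2 and 50.8% for Egln3, against a median of 52.4%. The promoter table matched 8 of the 9 genes with 9 windows, and 6 of these 9 held at least 1 match. Arnt held GCGTG 1 time, a second window of Egln2 likewise, and the windows of Vhl, Arnt2 and Hif1an held 0 matches. As for Hif1a, the starts behind the Arnt and Arnt2 windows and the second Egln2 window lie inside the RefSeq span of the gene. A match here is a run of letters, and binding was not measured.

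Both labels were checked first. The signal of Tmem132a was 1825.5 on the control array and 435.6 on the array labelled with its siRNA (log2 ratio -2.07, 1 probe set). This is the direction of the titles, although the description field names the control siRNA for both samples. Markers of the labelled cell type were present. Of 14 markers of sympathetic neuroblasts 12 had a probe set and 12 of 12 passed the signal filter, among them Phox2a, Th, Dbh and Mycn, with a summed signal of 49490.8 on the control array and 40622.0 on the other. Of the markers of other cell types, 0 of 7 passed for fibroblasts, 0 of 6 for endothelium, 0 of 5 for immune cells, 1 of 4 for glia (Mbp) and 1 of 4 for epithelium (Epcam). Their summed signals were 320.7 and 252.4 for fibroblasts, 192.4 and 149.7 for endothelium, 73.9 and 185.3 for immune cells, 229.4 and 287.0 for glia, and 152.2 and 264.1 for epithelium, control first, and 0 markers were listed at 0. The part of these cells in the results was not tested. As a sign of RNA quality, the 3′ over 5′ signal ratio was 0.95 and 0.99 for Gapdh and 1.52 and 1.69 for Actb, control first.

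Of the 9 genes, 7 had a probe set past the signal filter, and the other 2, Epas1 and Arnt2, did not. Hif1a and Egln1 were lower on the Tmem132a siRNA array by 1.76-fold and 1.59-fold. Egln2 was lower by 1.40-fold and Egln3 higher by 1.44-fold, while Arnt, Hif1an and Vhl lay within 1.11-fold of the control array. Thus 2 of 7 members were at least 1.5-fold lower, against 9.11% of all genes, and 0 were higher by that size, against 8.82%. The other 5 lay within 1.5-fold, as did 82.1% of all genes. At 2-fold, 0 of 7 were higher and 0 lower, against 2.10% and 2.44% of all genes. Below a ratio of 0 lay 4 of 7 members, against 48.2% of all genes, and the median of the members was -0.16, against 0.02 over all genes. RNA was taken from whole cultures, so fewer cells of a kind and less RNA per cell cannot be told apart.

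**Figure D1:**
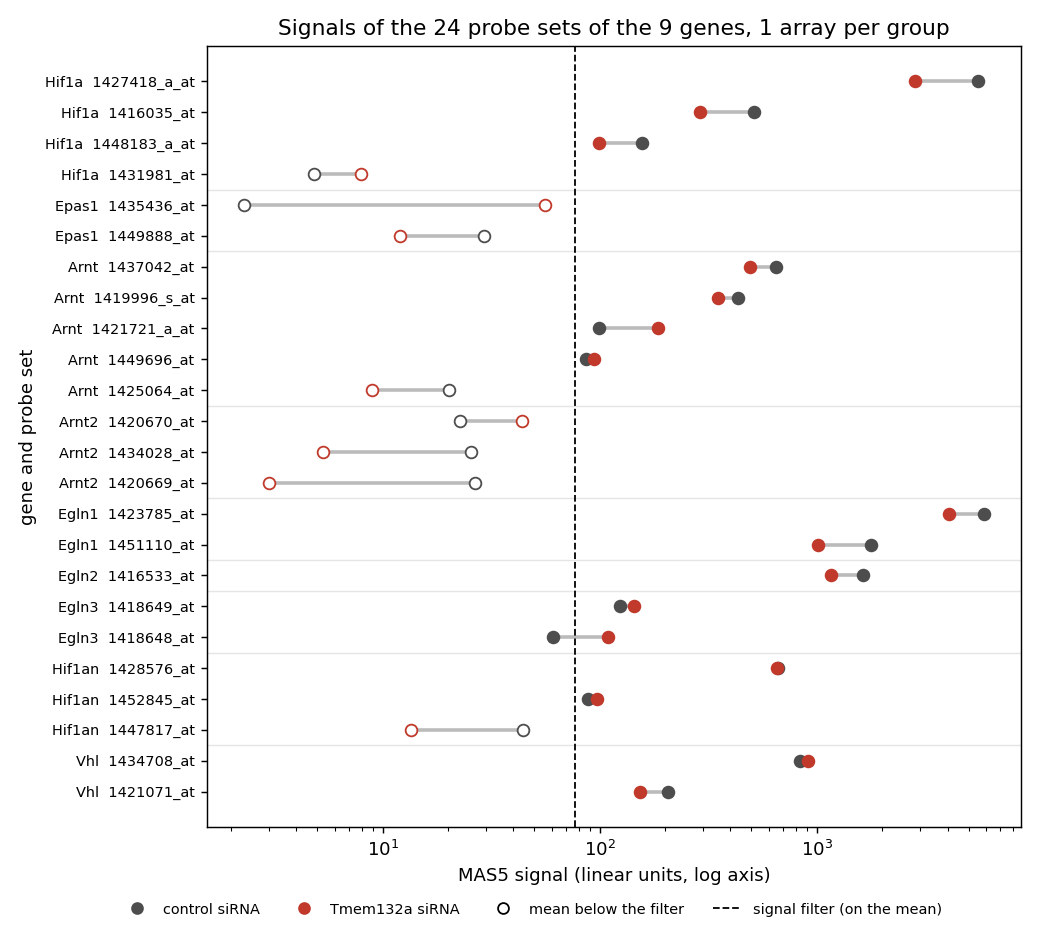
MAS5 signal (log axis) of the 24 probe sets of the 9 genes, a dot for each array, with open dots for the 8 probe sets whose mean lies below the filter (dashed line, 77.2). The Hif1a, Egln1 and Egln2 probe sets past the filter are lower with the Tmem132a siRNA, those of Egln3 are higher, and Epas1 and Arnt2 lie left of the line. Levels of different probe sets cannot be set against each other.

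Hif1a, the oxygen-labile subunit of HIF-1, had 4 probe sets, of which 3 passed the filter. The brightest, 1427418_a_at, went from a signal of 5542.4 on the control array to 2845.1 on the Tmem132a siRNA array, or 51.3% of the control (log2 ratio -0.96). The next, 1416035_at, went from 516.0 to 290.2 (log2 ratio -0.83). The third, 1448183_a_at, went from 156.1 to 98.7 (log2 ratio -0.66), so that the 3 probe sets past the filter were lower on the Tmem132a siRNA array. The gene value was -0.82, with an SD of 0.15 among the 3 probe sets, below the 0.39 found over all genes. An equal or lower gene value was found for 461 of 10678 genes (4.32%). Of 2168 genes with 3 or more probe sets past the filter, 23 (1.06%) had all of them at least 1.5-fold lower, Hif1a included. With 79.2 added to every signal as a pseudocount, 1448183_a_at had a log2 ratio of -0.40, which is under 1.5-fold. The place of Hif1a in this count thus depends on how dim signals are treated.

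The log2 ratio of Hif1a was largest in size for its brightest probe set. Ratios also spread less among bright probe sets in general: of 3955 probe sets with a mean signal of 2000 and above, 5.28% were at least 1.5-fold lower, against 8.80% of 6866 between 500 and 2000, 13.2% of 7199 between 150 and 500 and 16.1% of 4499 between 77.2 and 150. Over the same ranges the SD of the log2 ratio was 0.34, 0.43, 0.52 and 0.71. The probe sets with an a in their suffix can match several transcripts of the gene, and 2 of the 3 are of this kind. Without them the gene value of Hif1a was -0.83. The fourth, 1431981_at, was dim on both arrays, at 4.8 and 7.9, and gives no ratio.

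Epas1, which encodes the HIF-2 alpha subunit, was not above the filter on either array. Its probe set 1435436_at had signals of 2.3 and 55.8, and 1449888_at signals of 29.4 and 12.0, control first. The probe sets thus pointed opposite ways, and the highest signal of the gene was below the median of all probe sets. Of 15629 probe sets of 1 gene below the filter, 28.8% differed at least 2-fold after signals under 14.5 were set to that floor. No direction is given for Epas1.

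Arnt, the beta subunit that pairs with either alpha subunit, had 5 probe sets, and 4 passed. The brighter pair was lower with the Tmem132a siRNA: 1437042_at went from 647.2 to 492.4 (log2 ratio -0.39) and 1419996_s_at from 433.3 to 352.1 (-0.30). A dimmer one, 1421721_a_at, went the other way, from 99.3 to 184.5 (0.89), and 1449696_at went from 86.5 to 93.8 (0.12). The gene value of 0.08 is the mean of probe sets that disagreed, with an SD of 0.59. Probe sets on both sides of 0 were found for 44.7% of 5072 genes with several. By its brightest probe set alone, Arnt had a ratio of -0.39, so that its direction depends on the probe set. The fifth, 1425064_at, was dim, at 20.1 and 8.9.

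Arnt2, the beta subunit best known from neurons, was below the filter on both arrays, like Epas1. Its 3 probe sets had control signals of 22.7, 25.5 and 26.6. On the Tmem132a siRNA array they had signals of 44.0, 5.3 and 3.0 in the same order, 1 higher and 2 lower. Such signals are too dim to compare.

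Among the prolyl hydroxylases, Egln1 (PHD2), which acts on HIF-alpha under normal oxygen, was lower by both of its probe sets. The brighter, 1423785_at, went from 5862.1 on the control array to 4052.3 on the other (log2 ratio -0.53). The other, 1451110_at, went from 1785.2 to 1016.1 (log2 ratio -0.81). Both were thus lower, by 1.45-fold and 1.76-fold, and the gene value was -0.67. The annotation lists the same source sequence for both probe sets, so they are not independent readings. An equal or lower value was found for 6.71% of genes, and 25.6% of genes with several probe sets had all of them below 0. By the brightest probe set alone Egln1 was under 1.5-fold, which leaves 1 of the 7 members, Hif1a, past that size.

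Egln2 (PHD1) was measured by 1 probe set, 1416533_at, and was lower too. Its signal was 1631.0 on the control array and 1165.7 on the other, or 71.5% (log2 ratio -0.48). No second probe set was there to compare, and an equal or lower value was found for 12.4% of genes. The values of Egln1 and Egln2 differed by 0.19 on the log2 scale, less than the SD of 0.39 among probe sets of a gene. That SD includes dim probe sets and is not specific to bright ones such as those of Egln1 and Egln2.

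Egln3 (PHD3), the HIF-induced hydroxylase that has also been studied in neuronal cell death, was the member with the highest ratio. Its probe set 1418649_at went from 123.8 to 143.2 (log2 ratio 0.21), and 1418648_at from 60.9 to 108.6 (0.83). Both were thus higher with the Tmem132a siRNA, but dim, and of 4499 probe sets with a mean between 77.2 and 150, 19.1% were at least 1.5-fold higher. The control signal of the latter lay under the filter value of 77.2, and the probe set passed through its mean of 84.75, to which the other array contributed more. As for Egln1, the annotation lists the same source sequence for both probe sets of Egln3. The gene value was 0.52, and 11.1% of genes had an equal or higher one. When 79.2 was added to every signal as a pseudocount it was 0.28, and with the filter at the 75th percentile the gene had no value. The values of Egln3 and Egln1 lay 1.20 apart on the log2 scale, and 0.74 apart by the brightest probe set of each (0.21 and -0.53).

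**Figure D2:**
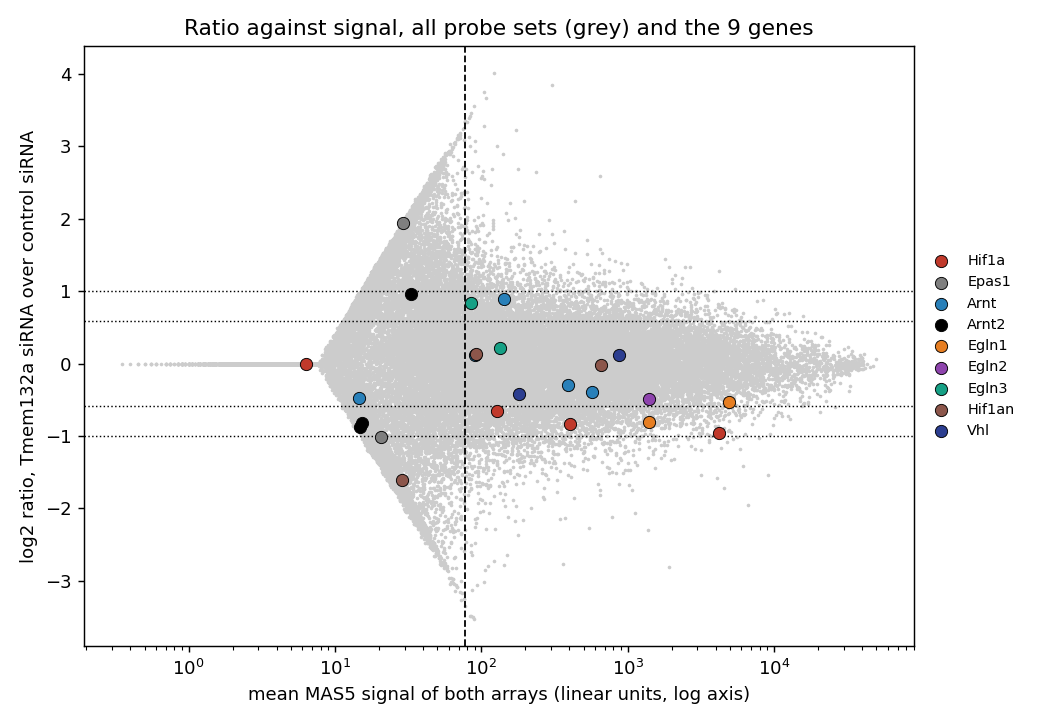
Log2 ratio (Tmem132a siRNA over control siRNA, after the floor) against the mean MAS5 signal of both arrays (log axis) for all probe sets in grey and the members in colour. Dotted lines mark 1.5-fold and 2-fold and the dashed line the filter at 77.2. The grey cloud narrows with signal, from an SD of 0.71 between 77.2 and 150 to 0.34 at 2000 and above, where the brightest probe sets of Hif1a (-0.96) and Egln1 (-0.53) lie.

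Hif1an, the asparaginyl hydroxylase, had almost the same signal on both arrays. Its brightest probe set, 1428576_at, had a signal of 662.5 on the control array and 654.4 on the other (log2 ratio -0.02), and 1452845_at had 88.1 and 96.7 (0.13). The gene value was 0.06. The third probe set, 1447817_at, was dim, at 44.3 and 13.5. It alone turned the gene value to -0.50 when no filter was set.

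Vhl, the substrate-binding subunit of the ubiquitin ligase, also showed little difference. Its brighter probe set, 1434708_at, went from 837.6 to 905.8 (log2 ratio 0.11) and 1421071_at from 206.3 to 153.5 (-0.43). They lay on opposite sides of 0. The gene value of -0.16 is smaller in size than the SD of 0.39 among probe sets of a gene, which is not an error between arrays. The Hif1a value lay 0.66 below that of Vhl and 0.90 below that of Arnt.

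**Figure D3:**
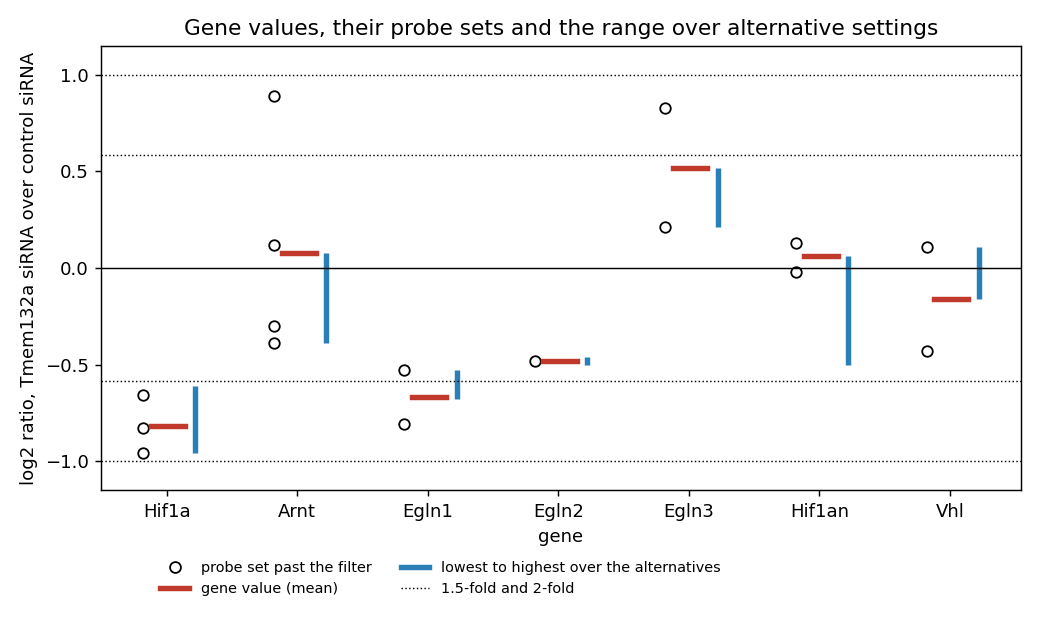
Gene log2 ratio (red bar) of the 7 genes with a value, the probe sets behind it (open dots) and the lowest to highest value over the alternative settings (blue). Hif1a (-0.96 to -0.61), Egln1 (-0.68 to -0.53) and Egln2 (-0.50 to -0.46) stay below 0 and Egln3 (0.21 to 0.52) above it in the settings that gave a value, while Arnt, Hif1an and Vhl cross 0.

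The partners of VHL in its ligase were mostly as on the control array. Of 12 genes for the ligase subunits, its NEDD8 modification and its E2 enzymes, 10 had a value, with a median of 0.06. By 1.5-fold or more 0 were higher, against 8.82% of all genes, and 1 was lower, against 9.11%, which is about the same share. That was Eloc (elongin C, the adaptor that holds VHL), with a gene value of -0.64, but its brightest probe set went from 15047.5 to 12952.3 (log2 ratio -0.22) and the dimmer ones had -0.77 and -0.93. It was at least 1.5-fold lower in 7 of 11 alternative settings. Elob (elongin B) had a value of -0.16 and Cul2, the scaffold, one of -0.02, with probe sets at 0.20 and -0.24. For Rbx1, the RING subunit, the probe set of 1 symbol was under the filter, at 60.1 and 53.5. A further 5 probe sets are shared with the pseudogene Rbx1-ps and gave no gene value, but 4 of them passed, with log2 ratios from -0.50 to 0.16, the brightest going from 16951.3 to 16398.1. Uba3, a subunit of the NEDD8-activating enzyme, had the highest value of the group together with Ube2d3, an E2 enzyme, at 0.26 each.

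Genes of HIF cofactors and regulators had a median of -0.20 over 15 of 20 genes, with 11 below 0, against 48.2% of all genes. At least 1.5-fold lower were 2, against 9.11%, a share near that of all genes, and 0 were higher by that size, against 8.82%. The lowest were Wdr83, a scaffold reported to bind EGLN3, at -0.86 (285.0 to 156.9), and Fkbp8, reported to bind EGLN1, at -0.77 (1254.3 to 736.5). Each rests on 1 probe set. The coactivators p300 (Ep300) and CBP (Crebbp), whose binding HIF1AN blocks, had values of -0.17 and -0.27. Cited2, which competes with HIF for these coactivators, had one of -0.09.

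Relatives of the HIF subunits, the other proteins with bHLH or PAS domains and the p160 coactivators, had a median of 0.15 over 11 of 18 genes. Of these, 2 were at least 2-fold higher, against 2.10% of all genes, and both are period genes of the circadian clock that share the PAS domain. Per2 had a value of 1.33 (145.7 to 366.1) and Per1 one of 1.04 (105.3 to 215.9), each from 1 probe set past the filter. With the pseudocount, both were under 2-fold, at 0.99 and 0.68. A further period gene on the list, Per3, went the other way. Its value was -0.35, from 3 probe sets past the filter at -0.73 to -0.16. The third alpha subunit, Hif3a, had a value of -0.50 from 1 of its 6 probe sets. At least 1.5-fold lower was 1 of the 11, against 9.11% of all genes, a share near that of all genes. That was Ncoa1, a p160 coactivator, at -0.85. Its brightest probe set had -0.54, which is under 1.5-fold, and the other had -1.16.

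Other enzymes that, like the EGLN proteins, use oxygen and 2-oxoglutarate had a median of -0.08 over 25 of 30 genes, with 2 higher and 1 lower by 2-fold or more, against 2.10% and 2.44% of all genes. By 1.5-fold or more 2 were higher and 4 lower, against 8.82% and 9.11%. P4htm, a transmembrane prolyl hydroxylase of the endoplasmic reticulum that has also been reported to act on HIF-alpha, was higher by both probe sets. They went from 289.0 to 634.4 and from 253.8 to 513.6, and the gene value was 1.08, against -0.67 for Egln1 and -0.48 for Egln2. With the pseudocount its value was 0.89. Plod2, a collagen lysyl hydroxylase, went from 6003.8 to 2677.6 and from 2521.9 to 1049.5, with a gene value of -1.22. The value of Jmjd6, 1.31, came from 1 probe set that went from 9.3 to 233.9 and passed the filter through the latter array alone, while its brighter ones had ratios of -0.08 and -0.01. By its brightest probe set it was therefore -0.08.

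Enzymes that make or use 2-oxoglutarate, succinate and fumarate, of which the first is the cosubstrate and the latter are inhibitors of the hydroxylases, had a median of 0.07 over 14 of 15 genes. Of these, 0 were at least 1.5-fold higher, against 8.82% of all genes, and 1 lower, against 9.11%, a share near that of all genes. Idh2 had a value of -0.60 (probe sets -0.83 and -0.36) and was at least 1.5-fold lower in 7 of 11 alternative settings. Idh1 followed at -0.41. The succinate dehydrogenase subunits lay between -0.14 (Sdhd) and 0.13 (Sdhb), and fumarate hydratase (Fh1) at 0.05.

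Genes known as HIF targets lay mostly below 0 on the Tmem132a siRNA array. Of 34 genes on the list, 27 had a value. Below 0 lay 22 of these, against 48.2% of all genes. At least 1.5-fold lower were 5, against 9.11%, and 0 were higher by that size, against 8.82%. The median was -0.27, against 0.02 over all genes. Adm (adrenomedullin) went from 1336.2 to 573.5 by its brightest probe set, with a gene value of -1.29, and Slc2a1 (the glucose transporter GLUT1) from 5140.6 to 2613.0, with -1.04. Among the listed targets that are also on the list of 2-oxoglutarate oxygenases, Kdm3a and P4ha2 each had -0.39 and P4ha1 had 0.07. Egln1 (-0.67) and Egln3 (0.52), also induced by HIF, are members and were left out of the lists. Of the 27 targets with a value, 5 lay above 0. The highest were Car9 at 0.57, from 1 dim probe set (66.2 to 98.3), and Stc2 at 0.38, from 3 probe sets at 0.02 to 0.65. Vegfa, a widely used HIF target, had -0.08, from probe sets at -0.19 and 0.03. These genes were listed with earlier results on hypoxia genes in these arrays known, so the count is not independent support.

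**Figure D4:**
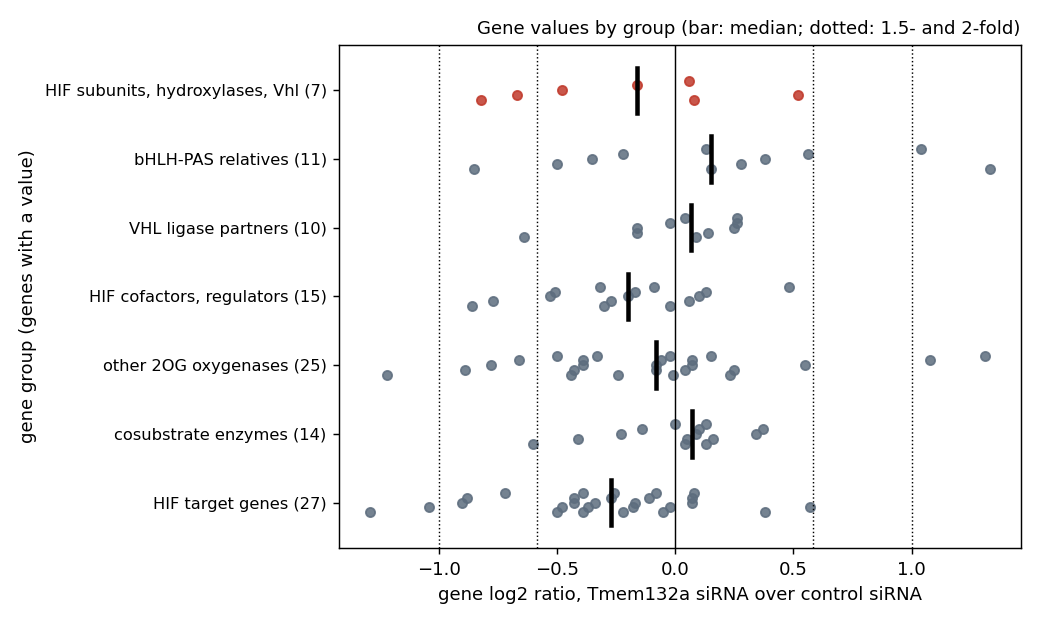
Gene log2 ratio (Tmem132a siRNA over control siRNA) of each gene with a value, by group, with the median as a black bar and dotted lines at 1.5-fold and 2-fold. The members (red, median -0.16) spread from -0.82 to 0.52, and the HIF targets have the lowest median (-0.27). Kdm3a, P4ha1 and P4ha2 are shown both among targets and oxygenases.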

How the data were processed

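Groups were taken from the sample titles, 1 array each. The authors deposited a linear MAS5 signal intensity for each probe set, per the series design text and the submitters' processing notes. The MAS5 version and the scaling are not given in the sources used here. The 2% trimmed mean was 500.0 on each array. MAS5 signals of dim probe sets are noisy, and ratios of low signals are the least precise.

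The 64 Affymetrix control rows of the 45101 in the table were not used. The platform annotation gave 34945 of the other probe sets 1 symbol and 932 several, and 9160 were not listed. Arrays were set to 1 trimmed mean, signals under the 20th percentile (14.5) were set to it, and probe sets with a mean under the median (77.2) were left out of gene values, which are mean log2 ratios. No test was made. The sizes counted are 1.5-fold and 2-fold. Computation used Python 3.11.15, numpy 2.4.6, pandas 2.3.3, statsmodels 0.14.6 and matplotlib 3.10.9. The procedure was also run on simulated data, which checked the median ratio over genes with set changes and not the precision of a single gene.

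Genes were named by a rule: all members, the core VHL partners, Tmem132a and, of each list, up to 4 genes past 2-fold or the 2 largest. The rule's genes nearest in signal to the highest and lowest member are not reported, since levels of different probe sets cannot be compared. Other list genes are examples chosen after their values were seen. The members and lists were chosen with earlier results of these data known. Of the listed genes, 15 had no probe set with 1 symbol and were not analysed here. Alternatives were no rescaling, centring, quantile normalization, loess (span 0.3), no filter, the 75th percentile filter (462.8), no floor, a pseudocount of 79.2, the brightest probe set, the median over probe sets, and leaving out x, s and a probe sets.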

Additional observations from a re-analysis of the deposited data

How the results depend on the processing

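Over 11 alternative settings, 186 values were compared: the gene values of members, the counts of members and the medians of the lists. Of these, 182 moved by less than the SD of 0.39 among probe sets of a gene (counts: by no more than 1.5 times). Several settings could hardly move them, so this count is no measure of precision. The trimmed means were already nearly equal, and no member probe set past the filter was at the floor. For members with 1 or 2 probe sets past the filter, the median equals the mean. The fall of Egln3 from 0.52 to 0.21 by its brightest probe set also counts as unmoved. Of the values past 1.5-fold, 0 turned their sign. Of the named list genes past that size, Jmjd6 (1.31) was below 0 in 3 settings, with a range of -0.08 to 4.01. The 4 exceptions were Arnt at -0.39 with the 75th percentile filter and at -0.39 by its brightest probe set, Hif1an at -0.50 with no filter, and the count of members at least 1.5-fold lower, which was 1 by the brightest probe set. Arnt, Hif1an and Vhl changed sign in 5, 3 and 2 settings, so no direction is given for them. Scaling moved the median of all genes by at most 0.007. The list medians kept their sign, except that of the bHLH and PAS relatives, which was 0.00 without x, s and a probe sets. Epas1 and Arnt2 had a value with no filter alone, 0.46 and -0.25, from probe sets near the floor. Egln3 had none with the 75th percentile filter. No paired analysis was possible because each group holds 1 array. Signal over background limits Epas1, Arnt2 and Egln3 most.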
